A study of Homo sapiens with 12 samples.

Results

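The thioredoxin and peroxiredoxin system of KYSE70 cells was followed through 10 genes, chosen by symbol from the 58884 genes of the deposited table: the thioredoxin TXN, the thioredoxin reductases TXNRD1 and TXNRD2, the sulfiredoxin SRXN1 and the peroxiredoxins PRDX1, PRDX2, PRDX3, PRDX4, PRDX5 and PRDX6. All 10 had enough reads to be among the 16950 genes tested. KYSE70 is an established line of human esophageal squamous cell carcinoma. RNA was sequenced from 4 libraries of cells given 20 nM mitoxantrone for 72 h, 4 of cells given 10 µM pyrimethamine for 72 h and 4 of untreated cells (control). Mitoxantrone, a chemotherapy drug, inserts between DNA bases and traps type II topoisomerases on their cut DNA, and pyrimethamine blocks folate metabolism and is best known as an antiparasitic drug. Both were given as inhibitors of NRF2, a transcription factor of antioxidant genes, and the libraries allow each drug to be compared with the control and with the other drug. All 3 groups are the same line. Vehicle treatment of the control is not given in the sources used here, nor is the number of cultures behind each set of 4 libraries, so p-values measure only a spread between libraries that may be technical.

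Thioredoxin is a small protein that passes electrons through a pair of active-site cysteines to oxidized proteins, and thioredoxin reductase, a selenoprotein, recharges it with electrons from NADPH. Peroxiredoxins destroy hydrogen peroxide and other peroxides with a reactive cysteine, which thioredoxin reduces again in most members of the family. When peroxide is abundant that cysteine can be oxidized further and the enzyme stops, and sulfiredoxin is the enzyme that repairs it. TXN, TXNRD1 and SRXN1 are among the best known targets of NRF2.

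The stretches below show how 7 of the 10 genes compare at the site that does the chemistry; PRDX1, PRDX6 and SRXN1 are not among them. Each is the coding sequence on the gene's own strand, with the codon of the reactive residue in capitals, taken from GENCODE release 29 transcripts on GRCh38. For TXN it is the first cysteine codon of the active site, for the peroxiredoxins shown the codon of the cysteine that attacks peroxide, and for the reductases the TGA that the annotation marks as selenocysteine. The stretches of PRDX3, PRDX4 and PRDX5 cross an intron, so that their coordinates span more bases than are printed.
TXN (chr9:110251367-110251417, minus strand): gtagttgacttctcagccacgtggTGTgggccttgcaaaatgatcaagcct
TXNRD1 (chr12:104348389-104348418, plus strand): gcaagcatcctccaggctggctgcTGAggt
TXNRD2 (chr22:19877108-19877137, minus strand): ctggaccccacggtgacaggctgcTGAggg
PRDX2 (chr19:12800996-12801046, minus strand): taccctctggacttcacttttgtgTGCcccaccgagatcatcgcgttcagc
PRDX3 (chr10:119173836-119174464, minus strand): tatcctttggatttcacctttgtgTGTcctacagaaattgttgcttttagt
PRDX4 (chrX:23671633-23675026, plus strand): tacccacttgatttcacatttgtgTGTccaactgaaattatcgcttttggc
PRDX5 (chr11:64319836-64320678, plus strand): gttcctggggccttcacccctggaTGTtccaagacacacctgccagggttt

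PRDX2, PRDX3 and PRDX4 were alike at this site, with 37 identical bases of 51 between PRDX2 and PRDX3, 39 between PRDX2 and PRDX4 and 40 between PRDX3 and PRDX4. PRDX5 shared 18 to 23 of the 51 bases with them. Over the whole coding sequences of the 7 genes shown, the longest exact run shared by any pair was 14 bases, between PRDX3 and PRDX4. The table also lists 17 pseudogenes named after a member. Of these, TXNP4 (13.2 to 30.7 normalized counts) and TXNP6 (3.95 to 19.6) reached 10 normalized counts in any library.

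Values are normalized counts, deposited reads per gene after division by a factor for each library. Library depth ranged from 47.5 M to 94.5 M reads assigned to genes. Fold changes come from limma on log2(normalized count + 1) over all 12 libraries, and a gene was called at a Benjamini-Hochberg adjusted p under 0.05 over the 16950 genes. The added 1 shrinks log2 changes of genes with few counts. Such changes compare means of log2 values, so they can also exceed the change in mean counts. SRXN1 under pyrimethamine is such a case, with a fitted 3.13-fold fall for mean counts of 29.1 beside 77.2 in the control. Transcripts of the mitochondrial genome took 3.71% ± 0.321 of reads under mitoxantrone, 7.65% ± 0.621 under pyrimethamine and 6.43% ± 0.230 in the control (SD, n = 4 each). Mitoxantrone replicate 1 stood lowest, at 3.23%, and without it the count of members called against the control was also 7. All 7 squamous epithelial and all 4 epithelial markers examined had a median of at least 100 normalized counts, while 3 of 4 leukocyte markers stayed below 10 in every library and PTPRC reached 29.4. Of the endothelial markers, PECAM1 and CDH5 stayed below 10 and VWF ranged from 174 to 1151. The fibroblast markers COL1A1 (3872 to 15353) and COL3A1 (1274 to 2476) were read in every library, while LUM stayed below 10 and PDGFRB reached 19.4. The summed fibroblast list stood at 5869.6 to 7647 normalized counts under mitoxantrone, 11847 to 13227 under pyrimethamine and 16889 to 17596 in the control, and the summed endothelial list at 175 to 247, 1048.5 to 1153 and 948 to 1059. The summed epithelial list stood at 84308 to 87743 under mitoxantrone, 115383 to 122715 under pyrimethamine and 97575 to 101147 in the control, the squamous list at 320946 to 344469.5, 408295 to 433272 and 333218 to 358171, and the leukocyte list at 0.954 to 7.42, 19.4 to 31.2 and 1.32 to 15.9. The fibroblast and epithelial lists and the mitochondrial share differed between all groups without overlap. Squamous and leukocyte lists overlapped between mitoxantrone and the control, and the endothelial list between pyrimethamine and the control. The part of these lists and of the mitochondrial share in the results below was not tested. In bulk RNA of the same line, fewer cells expressing a gene and less of its RNA per cell cannot be told apart.

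**Figure D1:**
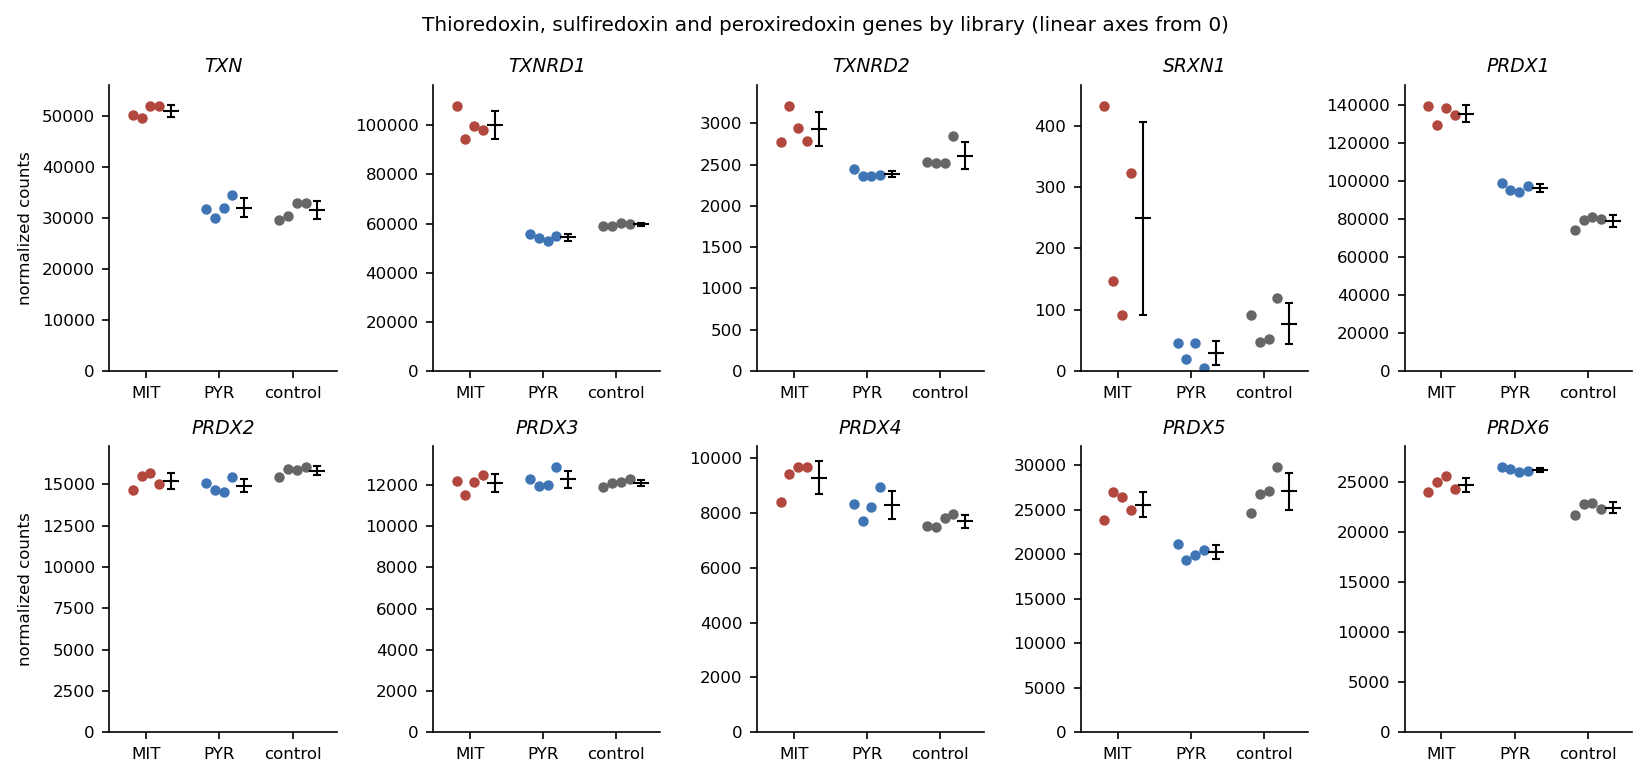
Normalized counts of the 10 genes in each library under mitoxantrone (MIT), pyrimethamine (PYR) and in the control, on linear axes that start at 0; points are libraries and the bar beside them is the mean ± SD (n = 4). TXN, TXNRD1 and PRDX1 stand apart under mitoxantrone, PRDX5 under pyrimethamine, and SRXN1 spreads widely within each group.

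Under mitoxantrone, 7 of the 10 genes were higher than in the control and none was lower, with PRDX1 1.72-fold, TXNRD1 1.68-fold and TXN 1.62-fold higher. That split depended on scaling: 5 were higher and 3 lower with libraries set to equal totals, and 6 higher and 3 lower with quantile normalization. Under pyrimethamine 2 genes were higher, PRDX1 and PRDX6, and 5 were lower, SRXN1, PRDX5, TXNRD1, TXNRD2 and PRDX2. Between the drugs, 7 genes were higher under mitoxantrone than under pyrimethamine and 1, PRDX6, was lower. Such counts stand against a high background: 69.3% of all genes tested were called for mitoxantrone against the control, 53.3% for pyrimethamine against the control and 76.4% between the drugs. In 1 direction, 33.5% of all genes were called higher and 35.8% lower under mitoxantrone, and 26.4% higher and 26.9% lower under pyrimethamine, and 36.9% were higher and 39.5% lower between the drugs. The median log2 change of the 10 genes was 0.22 under mitoxantrone and -0.03 under pyrimethamine against the control, and 0.31 between the drugs, beside -0.0080, 0.0018 and -0.024 over all genes tested. The comparisons with the control share the 4 control libraries.

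TXN, the cytosolic thioredoxin itself (chromosome 9, minus strand, 110243811 to 110256640), had 50302, 49565, 51934 and 52039 normalized counts in the 4 mitoxantrone libraries, 31779, 30068, 31959 and 34450.5 in the pyrimethamine libraries and 29700.3, 30365, 33029 and 33033 in the control. Every mitoxantrone library lay above every other library, while the pyrimethamine and control libraries overlapped. TXN rose 1.62-fold under mitoxantrone against the control (log2 change 0.69, SE 0.0441, adjusted p = 9.80e-12). It was also higher under mitoxantrone than under pyrimethamine, by 0.67 on the log2 scale (adjusted p = 7.95e-12). Pyrimethamine against the control gave a log2 change of 0.02 with a 95% interval of -0.08 to 0.12 (adjusted p = 0.674), and its sign turned with libraries set to equal totals (-0.03) or quantile normalized (-0.05).

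TXNRD1, the cytosolic reductase that recharges TXN (chromosome 12, plus strand, 104215779 to 104350305), had 107976, 94610.3, 99734 and 98113 normalized counts under mitoxantrone, 55735, 53921, 52786 and 55106 under pyrimethamine and 59157, 59197, 60421 and 59770.0 in the control. The 3 groups did not overlap: all mitoxantrone libraries were highest and all pyrimethamine libraries lowest. The gene rose 1.68-fold under mitoxantrone (log2 change 0.75, SE 0.0403, adjusted p = 7.13e-13) and fell 1.10-fold under pyrimethamine (log2 change -0.13, SE 0.0403, adjusted p = 0.00820). Quantile normalization gave log2 changes of 0.44 for mitoxantrone and -0.27 for pyrimethamine, and the call for pyrimethamine was lost with upper-quartile rescaling (-0.10, adjusted p = 0.0631). Mitoxantrone libraries exceeded pyrimethamine libraries 1.84-fold (log2 change 0.88, adjusted p = 1.60e-14).

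TXNRD2, the mitochondrial reductase (chromosome 22, minus strand, 19875517 to 19941992), had 2770.1, 3214, 2944 and 2787 normalized counts under mitoxantrone, 2441, 2357, 2365 and 2376 under pyrimethamine and 2533, 2524, 2526 and 2849.9 in the control. Control replicate 4 stood above the other 3 control libraries and above 2 of the mitoxantrone libraries, so that these groups overlapped, while every pyrimethamine library lay below every control library. TXNRD2 was higher under mitoxantrone (log2 change 0.17, SE 0.0509, adjusted p = 0.00635), but not called with libraries set to equal totals (0.07, adjusted p = 0.244). Under pyrimethamine it was 1.09-fold lower (log2 change -0.13, SE 0.0509, adjusted p = 0.0402). That call was lost without control replicate 4, with a log2 change of -0.08 (adjusted p = 0.169), without pyrimethamine replicate 2, 3 or 4 (adjusted p = 0.0820, 0.0797 and 0.0713), without a filter (0.0737), without a variance trend (0.0808) and with upper-quartile rescaling (0.147) or quantile normalization (0.105). Between the drugs, TXNRD2 was higher under mitoxantrone by 0.29 on the log2 scale (adjusted p = 2.16e-05).

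The ratio of TXNRD1 to TXNRD2 normalized counts, with no correction for length, was 34.4 ± 3.94 under mitoxantrone, 22.8 ± 0.361 under pyrimethamine and 22.9 ± 1.32 in the control (SD, n = 4 each). It ranged from 29.4 to 39.0 under mitoxantrone and from 21.0 to 23.9 in the control, without overlap, whereas the pyrimethamine libraries (22.3 to 23.2) lay inside the control range. The ratio of TXN to TXNRD1 was 0.510 ± 0.0298 under mitoxantrone, 0.590 ± 0.0312 under pyrimethamine and 0.529 ± 0.0249 in the control (SD, n = 4 each).

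Upstream of the first annotated start of TXNRD1 lies a match to the core of the antioxidant response element, the DNA word that NRF2 and its partners are known to read, shown in capitals because it is the kind of sequence the drugs' named target acts through. The stretch comes from RefSeq promoter windows of 300 bases on GRCh38.p14, from 250 bases before to 50 after each start.
TXNRD1 upstream (chr12:104215650-104215718, plus strand): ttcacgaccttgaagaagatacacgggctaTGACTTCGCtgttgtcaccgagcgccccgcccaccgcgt

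The match begins 99 bases before the start. TGACNNNGC and TGAGNNNGC were searched on both strands, in 12 windows of 8 members. The 2 windows of TXNRD1 held 4 matches, 3 of TGACNNNGC and 1 of TGAGNNNGC. The match shown was printed because its stretch lies wholly outside the annotated gene. The others begin 8 bases before the same start, and 102 and 198 bases before the start of the second window. Which start these cells use was not tested. TXNRD2, PRDX2 and PRDX3 held 1 match of TGAGNNNGC each, and the windows of TXN, SRXN1, PRDX4 and PRDX5 held neither word. Of 35116 RefSeq windows of this length, 13.3% held TGACNNNGC, 18.3% TGAGNNNGC and 29.1% either. A match describes letters only and says nothing of binding.

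SRXN1, the repair enzyme of over-oxidized peroxiredoxins (chromosome 20, minus strand, 646615 to 653370), had the fewest reads of the 10 genes and varied widely within each group. It had 433, 147, 91.5 and 324 normalized counts under mitoxantrone, 46.3, 19.7, 45.0 and 5.48 under pyrimethamine and 90.7, 47.6, 51.9 and 119 in the control. Pyrimethamine libraries lay below all control libraries, though the highest of them reached 46.3 where the lowest control library had 47.6, and the mitoxantrone and control libraries overlapped. SRXN1 was 2.88-fold higher under mitoxantrone (log2 change 1.52, SE 0.508, 95% interval 0.37 to 2.67, adjusted p = 0.0113) and 3.13-fold lower under pyrimethamine (log2 change -1.65, SE 0.508, 95% interval -2.80 to -0.50, adjusted p = 0.00930). Between the drugs the difference was 9.02-fold (log2 change 3.17, 95% interval 2.02 to 4.32, adjusted p = 8.05e-06), and the 4 mitoxantrone libraries lay above the 4 pyrimethamine libraries.

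Both calls of SRXN1 against the control were lost with a robust variance (adjusted p = 0.0817 for mitoxantrone and 0.0774 for pyrimethamine) and without a variance trend (0.0725 and 0.0690). The call for pyrimethamine was also lost in DESeq2 (log2 change -1.40, adjusted p = 0.0629). Without pyrimethamine replicate 4, the library with the fewest SRXN1 reads, the log2 change under pyrimethamine was -1.03 (adjusted p = 0.0482), and the difference between the drugs was 2.56 on the log2 scale in place of 3.17 (adjusted p = 1.61e-05). The coefficient of variation between replicates was 63.4% under mitoxantrone, 68.5% under pyrimethamine and 43.7% in the control, above the 6.30%, 18.2% and 11.4% that counting error of 74 to 419, 5 to 52 and 50 to 97 reads gives. Of the gene's 2698 exonic bases, 2292 (85.0%) are shared with AL121758.1 on the same strand, which itself held 2 reads over all 12 libraries. How reads in both genes were treated is not given in the sources used here, so the level of SRXN1 per length is uncertain.

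**Figure D2:**
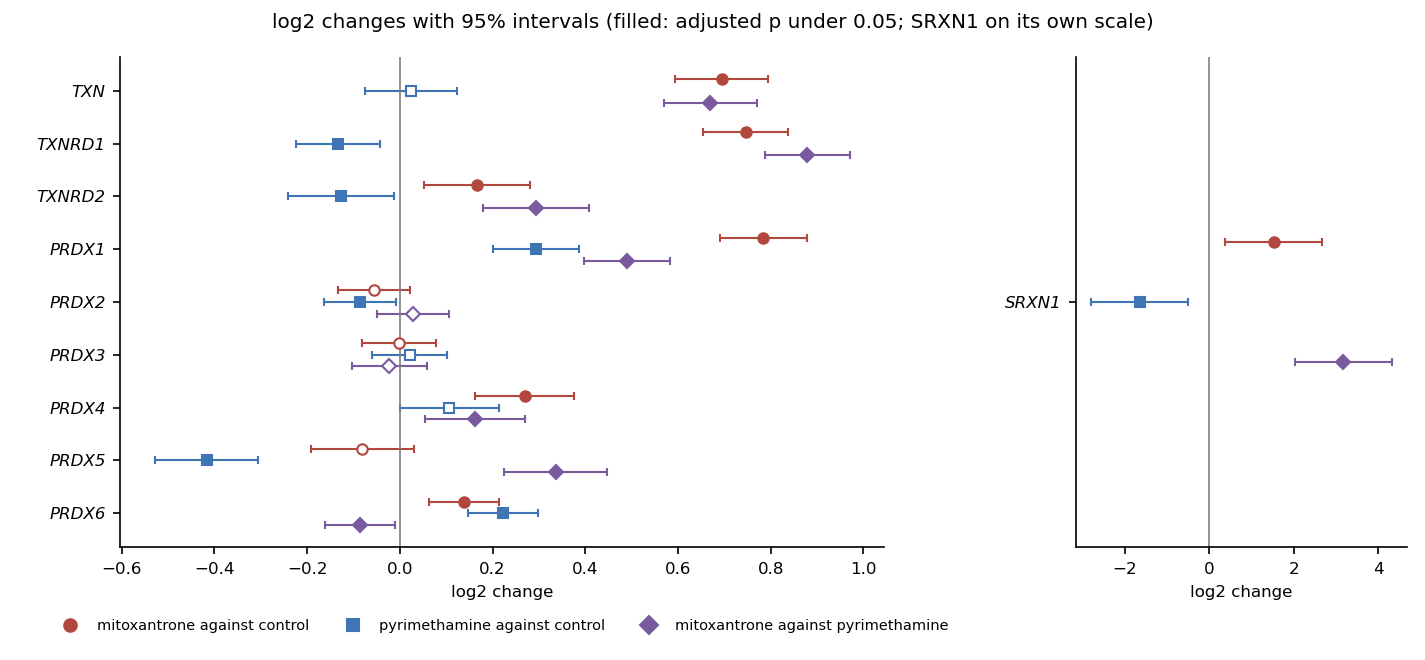
Log2 changes of the 10 genes with 95% intervals for mitoxantrone against the control, pyrimethamine against the control and mitoxantrone against pyrimethamine; filled symbols were called at an adjusted p under 0.05, and SRXN1 has its own axis. The mitoxantrone changes of TXN, TXNRD1 and PRDX1 lie between 0.69 and 0.78, and the intervals of PRDX3 hold 0 in all 3 comparisons.

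PRDX1, an abundant cytosolic peroxiredoxin that is also known as a chaperone and signal relay (chromosome 1, minus strand, 45511036 to 45523047), had 139630.2, 129303, 138509 and 134648 normalized counts under mitoxantrone, 98923, 95262, 94127 and 97487 under pyrimethamine and 73997, 79672, 80941 and 80192 in the control. All mitoxantrone libraries were highest, all pyrimethamine libraries came next and all control libraries were lowest, with no overlap. PRDX1 rose 1.72-fold under mitoxantrone (log2 change 0.78, SE 0.0411, adjusted p = 4.37e-13) and 1.23-fold under pyrimethamine (log2 change 0.29, SE 0.0411, adjusted p = 3.45e-06). Quantile normalization lowered these changes to 0.44 and 0.07, and the second was then not called (adjusted p = 0.0915). Mitoxantrone exceeded pyrimethamine by 0.49 on the log2 scale (adjusted p = 4.61e-10). PRDX1 shares 379 exonic bases (24.9%) with MMACHC on the opposite strand, whose 807 to 1051 normalized counts are few beside those of PRDX1. Whether reads were counted by strand is not given in the sources used here, and reads of shared bases cannot be told apart without it.

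PRDX2, the close cytosolic relative of PRDX1 (chromosome 19, minus strand, 12796820 to 12801859), had 14639.7, 15541, 15717 and 15008 normalized counts under mitoxantrone, 15065, 14654, 14547 and 15432 under pyrimethamine and 15439.9, 15948, 15889.9 and 16043 in the control. The mitoxantrone libraries overlapped both other groups, and the highest pyrimethamine library (15432) fell just short of the lowest control library (15439.9). PRDX2 was 1.06-fold lower under pyrimethamine (log2 change -0.09, SE 0.0343, adjusted p = 0.0415). This call was lost without a filter, with upper-quartile rescaling (-0.05, adjusted p = 0.288), without a variance trend (0.0563) and without control replicate 2, 3 or 4 or pyrimethamine replicate 1, 2 or 3 (0.0556 to 0.120). Mitoxantrone against the control gave -0.06 (95% interval -0.13 to 0.02, adjusted p = 0.148), which was called lower with libraries set to equal totals (-0.16) or quantile normalized (-0.17). Between the drugs the change was 0.03 (95% interval -0.05 to 0.11, adjusted p = 0.454). The ratio of PRDX1 to PRDX2 normalized counts was 8.91 ± 0.502 under mitoxantrone, 6.46 ± 0.106 under pyrimethamine and 4.97 ± 0.127 in the control (SD, n = 4 each), with no overlap between groups. PRDX2 shares 296 exonic bases (14.1%) with the antisense gene AC018761.2, which had 0.954 to 13.5 normalized counts.

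PRDX3, the mitochondrial peroxiredoxin that TXNRD2 and the mitochondrial thioredoxin serve (chromosome 10, minus strand, 119167703 to 119178833), had 12208, 11495, 12164 and 12504 normalized counts under mitoxantrone, 12297, 11968, 12005 and 12857 under pyrimethamine and 11895, 12088, 12136 and 12279.7 in the control. The groups overlapped in every pair. The log2 change was -0.0014 under mitoxantrone (95% interval -0.08 to 0.08, adjusted p = 0.975), 0.02 under pyrimethamine (95% interval -0.06 to 0.10, adjusted p = 0.646) and -0.02 between the drugs (95% interval -0.10 to 0.06, adjusted p = 0.573). Mitoxantrone against the control was called lower with libraries set to equal totals (-0.10) or quantile normalized (-0.09), and quantile normalization also gave a call between the drugs (-0.09, adjusted p = 0.0338).

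PRDX4, the peroxiredoxin of the endoplasmic reticulum (X chromosome, plus strand, 23664262 to 23686399), had 8396, 9391, 9644 and 9652 normalized counts under mitoxantrone, 8313, 7678, 8215 and 8923 under pyrimethamine and 7502, 7489, 7789 and 7950.2 in the control. All mitoxantrone libraries lay above all control libraries, and the pyrimethamine libraries overlapped both. PRDX4 rose 1.21-fold under mitoxantrone (log2 change 0.27, SE 0.0475, adjusted p = 3.57e-05), or by 0.17 on the log2 scale with libraries set to equal totals. Pyrimethamine against the control gave 0.11 and was not called (95% interval -0.00067 to 0.21, adjusted p = 0.0640), though it was with upper-quartile rescaling (0.0205), with only the 8 libraries compared (0.0209), and without pyrimethamine replicate 2 (0.0197) or mitoxantrone replicate 1 (0.0195). Mitoxantrone exceeded pyrimethamine by 0.16 (adjusted p = 0.00403), a call lost with quantile normalization (0.10, adjusted p = 0.0770).

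PRDX5, found in mitochondria, peroxisomes and cytosol (chromosome 11, plus strand, 64318088 to 64321811), had 23918, 26967, 26405 and 25027 normalized counts under mitoxantrone, 21177, 19404, 19910.1 and 20521 under pyrimethamine and 24649, 26779, 27108 and 29791 in the control. Every pyrimethamine library lay below every other library, and the mitoxantrone and control libraries overlapped. PRDX5 fell 1.33-fold under pyrimethamine (log2 change -0.42, SE 0.0493, adjusted p = 3.71e-07) and was higher under mitoxantrone than under pyrimethamine by 0.34 on the log2 scale (adjusted p = 2.52e-06). Mitoxantrone against the control gave -0.08 (95% interval -0.19 to 0.03, adjusted p = 0.151). It was called lower without control replicate 1 (-0.12, adjusted p = 0.0286), with libraries set to equal totals (-0.18) and with quantile normalization (-0.23).

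PRDX6, which has a single reactive cysteine, is reduced by glutathione and also acts as a phospholipase (chromosome 1, plus strand, 173477266 to 173488807), had 23946, 24937, 25604 and 24232 normalized counts under mitoxantrone, 26451, 26258, 25930.3 and 26064 under pyrimethamine and 21717, 22776, 22917 and 22284 in the control. The groups did not overlap, with the pyrimethamine libraries highest and the control libraries lowest. PRDX6 rose 1.10-fold under mitoxantrone (log2 change 0.14, SE 0.0334, adjusted p = 9.73e-04) and 1.17-fold under pyrimethamine (log2 change 0.22, SE 0.0334, adjusted p = 8.06e-06). The call for mitoxantrone was lost with libraries set to equal totals (0.04, adjusted p = 0.306) or quantile normalized (0.0049, adjusted p = 0.889). Between the drugs PRDX6 was lower under mitoxantrone, with a log2 change of -0.09 (adjusted p = 0.0254), or -0.13 and -0.17 under those scalings. That call was lost without pyrimethamine replicate 1 (0.0558) or mitoxantrone replicate 4 (0.0608) and in edgeR (0.0688).

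Groups did not overlap for 5 of the 10 genes under mitoxantrone against the control, 7 under pyrimethamine against the control and 7 between the drugs, where 60.9%, 51.1% and 68.8% of all genes tested did not overlap. Together the 10 genes took 0.563% ± 0.0185 of reads under mitoxantrone, 0.411% ± 0.0103 under pyrimethamine and 0.413% ± 0.0102 in the control (SD, n = 4 each). TXN and TXNRD1 alone took 0.226%, 0.133% and 0.146% in the same order of groups. The 6 peroxiredoxins took 0.332% ± 0.00826 under mitoxantrone, 0.275% ± 0.00661 under pyrimethamine and 0.262% ± 0.00789 in the control.

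Levels can be set against each other between genes only per length, here as normalized counts per kilobase of annotated exon. PRDX1 was the most abundant of the 10 in each group, at 89042 ± 3064 per kilobase under mitoxantrone, 63370.4 ± 1419 under pyrimethamine and 51709 ± 2089 in the control (SD, n = 4 each). It ranked 15 of 26990 genes with reads under mitoxantrone, 20 of 30632 under pyrimethamine and 27 of 28378 in the control. TXN followed under mitoxantrone (44623 ± 1072) and pyrimethamine (28077 ± 1580.2), ahead of PRDX5 (28644 ± 1539.5 and 22679.9 ± 859). In the control, PRDX5 (30327 ± 2362) and TXN (27611 ± 1534) stood in the opposite order, with SDs that overlapped.

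TXNRD1 stood at 14924 ± 844 per kilobase under mitoxantrone, 8108 ± 195 under pyrimethamine and 8890.4 ± 88.4 in the control, and PRDX6 at 10427 ± 314, 11059 ± 96.0 and 9473 ± 229.7. TXNRD1 was thus above PRDX6 under mitoxantrone and below it in the other groups. PRDX2 came next, at 7275 ± 236 under mitoxantrone, 7131 ± 194 under pyrimethamine and 7563 ± 128 in the control. PRDX4 (4869 ± 313, 4349.9 ± 268 and 4035 ± 119) and PRDX3 (3539 ± 125, 3594 ± 120.3 and 3541 ± 46.5) were lower. TXNRD2 (349.8 ± 24.6, 285 ± 4.58 and 312 ± 19.2) and SRXN1 (92.2 ± 58.4, 10.8 ± 7.40 and 28.6 ± 12.5) were lowest in every group. The length used for SRXN1 is all 2698 exonic bases, of which only 406 are shared with no other gene. How reads of the shared bases were counted is not given, so the place of SRXN1 in this order is uncertain. Of the neighbours in this order, only PRDX5 and TXN in the control had SDs that overlapped.

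The genes whose profiles over the 12 libraries were most like each member were found among 12087 genes by the root-mean-square distance between log2 values centred on each gene's mean. Nearest to TXN were SRI (0.0437), NDUFA5 (0.0552) and NQO1 (0.0554), and nearest to TXNRD1 were CTDSP1 (0.0394), FBXO30 (0.0477) and TMEM135 (0.0501). RABL3 (0.0290), TDP1 (0.0550) and ATXN7L3B (0.0607) were nearest to PRDX1. For 5 of the other members, the nearest were MRFAP1 for TXNRD2, EIF2S1 for PRDX2, AK3 for PRDX3, MTX1 for PRDX5 and ARF1 for PRDX6, at distances of 0.0274 to 0.0548. Distances depend on how much a member itself varied around its mean, by 0.0378 for PRDX3 and 0.0483 for PRDX2. A gene with no change at all would lie at those distances, beside 0.0320 for AK3 and 0.0286 for EIF2S1. SRXN1, which itself varied by 1.58, had no gene so close: COL26A1 (0.781), AC011462.6 (0.787) and PDF (0.789) were the nearest.

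Around these genes, 58 others were listed by role or by a thioredoxin-like fold, and 56 were tested. They are called pathway genes here, though not all have a known part in the thioredoxin pathway. Under mitoxantrone 29 were higher, 14 lower and 13 not called against the control, with a median log2 change of 0.11, beside 33.5% called higher, 35.8% called lower and a median of -0.0080 over all genes tested. Under pyrimethamine 19 were higher, 20 lower and 17 not called, with a median of -0.0077, beside 26.4% called higher, 26.9% called lower and a median of 0.0018 over all genes. With libraries set to equal totals, 22 were higher and 20 lower under mitoxantrone and 15 higher and 24 lower under pyrimethamine, and with quantile normalization 24 were higher and 19 lower under mitoxantrone. Between the drugs 29 were higher under mitoxantrone, 18 lower and 9 not called, with a median of 0.11, beside 36.9% called higher, 39.5% called lower and a median of -0.024 over all genes.

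**Figure D3:**
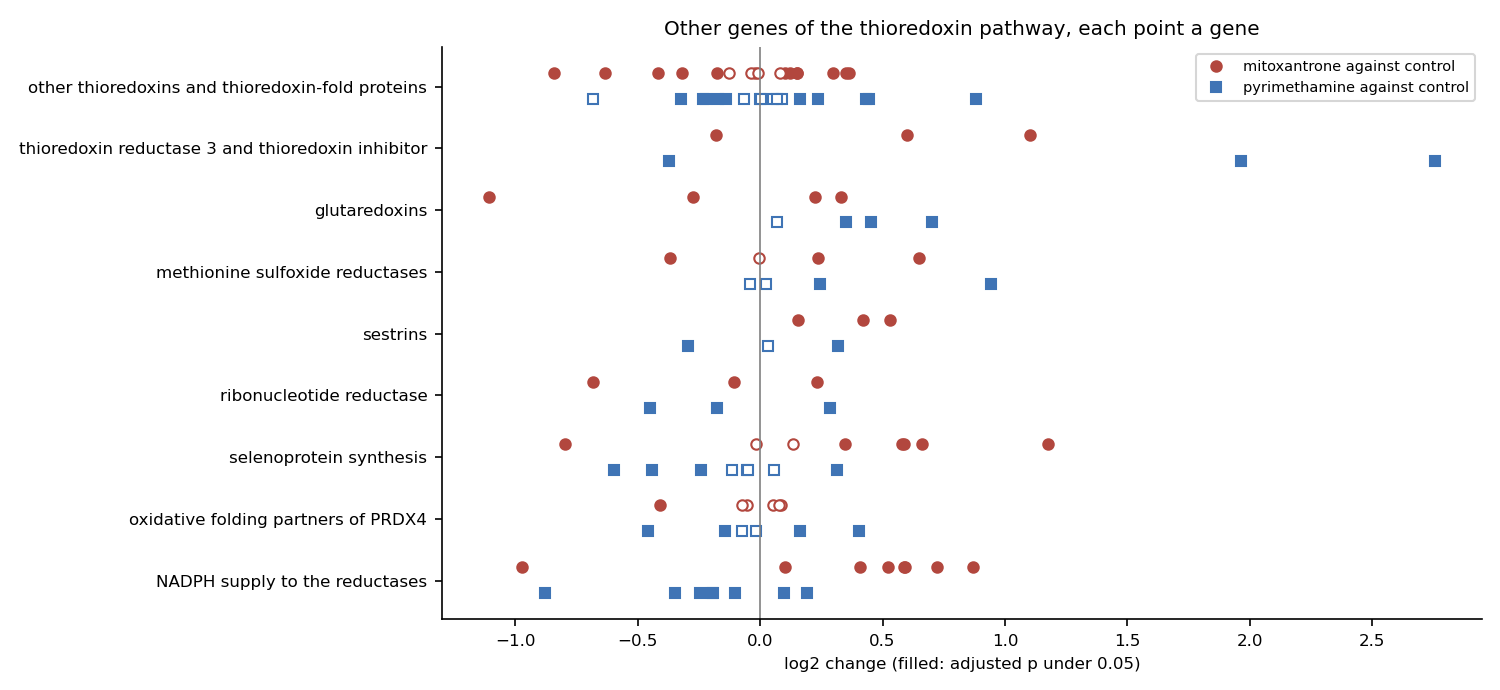
Log2 changes of the 56 tested pathway genes in 9 lists for mitoxantrone against the control (circles) and pyrimethamine against the control (squares); each point is a gene, filled where called at an adjusted p under 0.05. TXNIP and ARRDC4 lie farthest to the right under pyrimethamine, at 2.76 and 1.97, and 7 of 8 genes of NADPH supply lie to the right of 0 under mitoxantrone, 1 of them, NNT, to the left under 1 of 25 alternatives.

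TXNIP, the protein that binds thioredoxin and blocks it, and that responds to glucose and nutrient state, had 5883, 5221, 5425 and 5368 normalized counts under mitoxantrone, 17268, 17277, 16636 and 17654 under pyrimethamine and 2497, 2308, 2782 and 2623 in the control. The 3 groups did not overlap, with the pyrimethamine libraries far above the rest. TXNIP rose 2.15-fold under mitoxantrone (log2 change 1.10, adjusted p = 3.10e-14) and 6.75-fold under pyrimethamine (log2 change 2.76, adjusted p = 4.52e-20). It was lower under mitoxantrone than under pyrimethamine, with a log2 change of -1.65 (adjusted p = 1.17e-17). Its relative ARRDC4, an arrestin-domain protein, rose by 0.60 under mitoxantrone (adjusted p = 6.20e-09) and by 1.97 under pyrimethamine (adjusted p = 3.96e-16). TXNRD3, the reductase best known from testis, fell under mitoxantrone, with -0.18 (adjusted p = 6.90e-04), and under pyrimethamine, with -0.37 (adjusted p = 1.94e-07).

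Of 17 other thioredoxins and thioredoxin-fold proteins tested, 7 were higher and 5 lower under mitoxantrone, and 5 higher and 5 lower under pyrimethamine. Over all genes, 33.5% were called higher and 35.8% lower under mitoxantrone, and 26.4% higher and 26.9% lower under pyrimethamine. TXN2, the mitochondrial thioredoxin, had a log2 change of -0.02 under mitoxantrone (adjusted p = 0.604) and fell under pyrimethamine, with -0.14 (adjusted p = 0.00158). It was called lower under mitoxantrone too with libraries set to equal totals or quantile normalized. TXNDC17, a cytosolic thioredoxin-like protein, had a log2 change of -0.63 under mitoxantrone and 0.88 under pyrimethamine (adjusted p = 5.94e-10 and 1.27e-11), and -1.52 between the drugs. TXNDC12, of the endoplasmic reticulum, rose the most under mitoxantrone (0.36) and TXNDC16 fell the most (-0.84). TXNDC15 fell the most under pyrimethamine (-0.32) and was the most increased between the drugs (0.40).

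Glutaredoxins, some of which do with glutathione what thioredoxin does with its reductase, were split. GLRX, the cytosolic glutaredoxin, had 766, 748, 847 and 867 normalized counts under mitoxantrone, 2943, 2578, 2768 and 3040.0 under pyrimethamine and 1762, 1839, 1696 and 1654 in the control. The groups did not overlap, with the mitoxantrone libraries lowest and the pyrimethamine libraries highest. GLRX fell by 1.11 on the log2 scale under mitoxantrone (adjusted p = 8.10e-13) and rose by 0.70 under pyrimethamine (adjusted p = 3.61e-09), a difference of -1.81 between the drugs (adjusted p = 7.76e-17). Of the 4 glutaredoxins, 2 were higher and 2 lower under mitoxantrone, led upward by GLRX3 (0.33), and 3 were higher under pyrimethamine with 1 not called. Among all genes, 33.5% were called higher and 35.8% lower under mitoxantrone, and 26.4% higher under pyrimethamine.

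Ribonucleotide reductase, which makes deoxyribonucleotides with electrons from thioredoxin or glutaredoxin, had 1 subunit gene higher and 2 lower under each drug. The shares of all genes were 33.5% called higher and 35.8% lower under mitoxantrone, and 26.4% and 26.9% under pyrimethamine. RRM2, its small subunit in dividing cells, had 16099.8 ± 997 normalized counts under mitoxantrone, 22869 ± 332 under pyrimethamine and 25837 ± 755 in the control (SD, n = 4 each). It fell by 0.68 on the log2 scale under mitoxantrone (adjusted p = 2.22e-12) and fell by 0.18 under pyrimethamine (adjusted p = 7.85e-04), and the difference between the drugs was -0.51 (adjusted p = 1.41e-10). RRM1, the large subunit, fell by 0.45 under pyrimethamine and was higher under mitoxantrone than under pyrimethamine by 0.34, and RRM2B, the stress-inducible small subunit, rose by 0.23 under mitoxantrone and 0.28 under pyrimethamine.

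**Figure D4:**
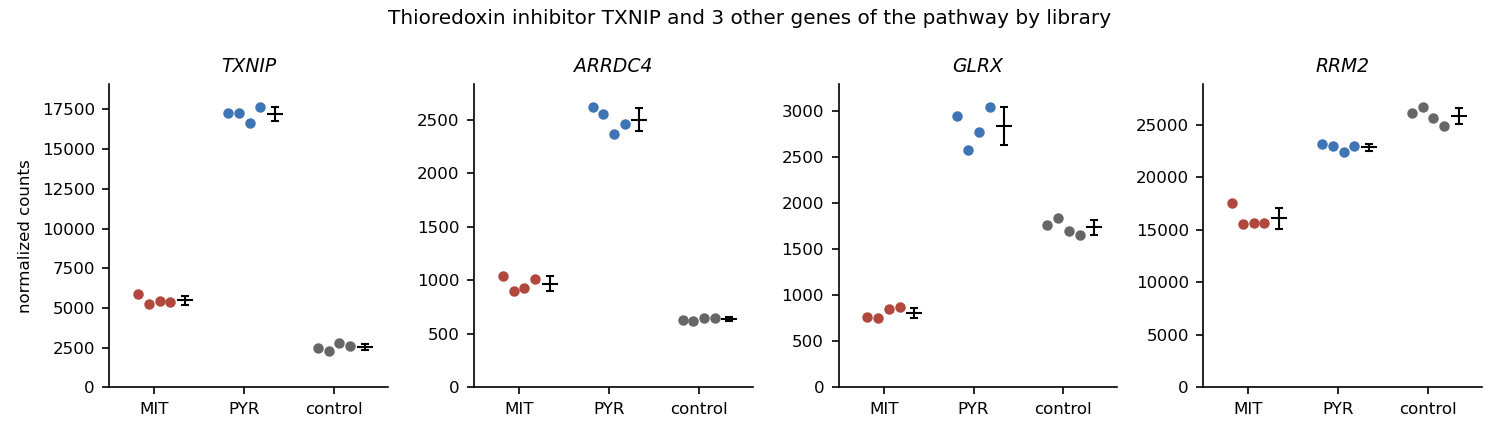
Normalized counts of TXNIP, ARRDC4, GLRX and RRM2 in each library under mitoxantrone (MIT), pyrimethamine (PYR) and in the control, with mean ± SD (n = 4) and axes from 0. GLRX lies below the control under mitoxantrone and above it under pyrimethamine.

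Of the 8 enzymes that supply NADPH, the fuel of both reductases, 7 were called higher and 1 lower under mitoxantrone, where 33.5% of all genes were called higher and 35.8% lower. Under pyrimethamine 2 were called higher and 6 lower, where 26.4% of all genes were called higher and 26.9% lower. Among the 7, the call of NNT, the mitochondrial transhydrogenase (0.10, adjusted p = 0.0188), was lost with libraries set to equal totals or quantile normalized and without control replicate 4, and 1 of these alternatives gave -0.00074. TKT, a transketolase of the pentose phosphate pathway, rose the most under mitoxantrone (0.87, adjusted p = 3.77e-14). IDH2, the mitochondrial isocitrate dehydrogenase, was the gene that fell (-0.97, adjusted p = 2.48e-14). IDH1, the cytosolic isocitrate dehydrogenase, had 18830.3 ± 1101 normalized counts under mitoxantrone, 6800.1 ± 160.3 under pyrimethamine and 12489 ± 205 in the control (SD, n = 4 each), a log2 change of 0.59 under mitoxantrone and -0.88 under pyrimethamine (adjusted p = 1.93e-11 and 2.59e-13). Under pyrimethamine TKT was called higher (0.10), and was called under 14 of 25 alternatives, with -0.0049 under quantile normalization; among the 11 that lost the call were those without control replicate 1, 3 or 4 or pyrimethamine replicate 1, 2 or 3. ME1, the cytosolic malic enzyme, was called lower (-0.10) except with upper-quartile rescaling. Between the drugs IDH1 had the largest rise of the list (1.47) and IDH2 fell (-0.78).

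Of the 8 genes of selenoprotein synthesis tested, which put selenocysteine at the TGA shown above for TXNRD1 and TXNRD2, 5 were higher and 1 lower under mitoxantrone, and 1 higher and 3 lower under pyrimethamine. Over all genes, 33.5% were called higher and 35.8% lower under mitoxantrone, and 26.4% higher and 26.9% lower under pyrimethamine. SECISBP2, which binds the selenocysteine insertion element, had 1657 ± 118 normalized counts under mitoxantrone, 538 ± 14.5 under pyrimethamine and 731 ± 20.3 in the control (SD, n = 4 each). Its log2 change was 1.18 under mitoxantrone and -0.44 under pyrimethamine (adjusted p = 3.09e-13 and 2.50e-06). EEFSEC, the elongation factor for selenocysteine, rose under mitoxantrone (0.66) and fell the most of the list under pyrimethamine (-0.60). PSTK, the kinase that acts on the selenocysteine tRNA, fell under mitoxantrone (-0.80, adjusted p = 4.66e-04). SEPSECS, the selenocysteine synthase, rose under pyrimethamine (0.31, adjusted p = 0.0294), a call lost under 5 of 25 alternatives, among them setting libraries to equal totals and leaving out control replicate 2 or 4 or pyrimethamine replicate 1 or 4.

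Among the methionine sulfoxide reductases, which use thioredoxin to repair oxidized methionine, 2 of 4 were higher and 1 lower under mitoxantrone, and 2 were higher under pyrimethamine. For these and the lists that follow, 33.5% of all genes were called higher and 35.8% lower under mitoxantrone. Under pyrimethamine the shares were 26.4% and 26.9%. MSRB3 rose under both drugs (0.65 under mitoxantrone and 0.94 under pyrimethamine), and the selenoprotein MSRB1 fell under mitoxantrone (-0.37). All 3 sestrins, stress-induced regulators of metabolism, were higher under mitoxantrone, led by SESN2 (0.53), though SESN3 (0.15) was not called with libraries set to equal totals or quantile normalized, without a variance trend, or without control replicate 2 or 4. Under pyrimethamine SESN2 was higher (0.32) and SESN3 lower (-0.29). Of 6 oxidative folding partners of PRDX4 in the endoplasmic reticulum, 1 was called under mitoxantrone, ERO1B, an oxidase of that compartment, which fell (-0.41). PDIA4, of the same list, just missed the threshold (0.08, adjusted p = 0.0510). It was called under 8 of 25 alternatives, edgeR and DESeq2 among them, and changed sign under 2. Under pyrimethamine ERO1B rose (0.41), PDIA6, a disulfide isomerase, fell (-0.46), and the list had 2 genes higher and 2 lower.

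The regulators NFE2L2, which encodes NRF2, KEAP1, which marks NRF2 for destruction, and BACH1, a repressor at the same DNA word, had log2 changes of 0.69, 0.34 and -0.11 under mitoxantrone and -0.11, -0.05 and 0.44 under pyrimethamine, of which KEAP1 under pyrimethamine was not called (adjusted p = 0.279).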

How the data were processed

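RNA of KYSE70 cells was sequenced in 12 libraries, 4 per group. Tools named in the submitters' processing notes are STAR 2.6.90c, featureCounts 1.5.1, FastQC 0.11.5 and cutadapt 1.12, with builds hg38 and mm10. Each deposited value is a normalized signal, the read count of a gene after division by a factor for its library. The factors were estimated from the values, as the value of 1 read that makes the values of a library whole multiples. With these estimates, 100% of values, zeros among them, were whole reads within 0.01, and these counts gave the depths. Since the estimates were fitted to give whole reads, that share is not a separate check. How the submitters made their factors, whether strand was used and how reads in several genes were counted is not given in the sources used here.

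Tested genes reached 10 normalized counts in 4 or more libraries. limma 3.58.1 in R 4.3.3 was fitted on log2(value + 1) to the 12 libraries together, with group as its single term, eBayes and a trend. P-values are two-sided and adjusted by the Benjamini-Hochberg method. The 95% intervals use the standard error and a t distribution with 9 degrees of freedom. Fold changes are 2 to the power of the size of the log2 change. Counting errors cover counting only.

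The 10 genes, the pathway lists and the tests were chosen with earlier results of these data known. All 10 genes are named, with TXNIP, TXN2, GLRX, RRM2 and the called gene with the largest rise and fall of each list; other pathway genes, such as EEFSEC and NNT under mitoxantrone and TKT and ME1 under pyrimethamine, were named after their values were seen. On the recovered reads, edgeR 4.0.16 called 11765 genes for mitoxantrone against the control, 9286 for pyrimethamine against the control and 12943 between the drugs, and DESeq2 1.42.0 called 11834, 9318 and 12960 in that order. Further alternatives changed the pseudocount (0.5 or 10), the filter (none, or a mean of 100), the scaling (3 kinds) or the variance model, or used only the 8 libraries compared, a replicate block, or all libraries but 1. A few genes that the rule would name are not reported here. Positions are from GENCODE release 29 on GRCh38. Tables and figures were made with pandas 2.3.3, numpy 2.4.6 and matplotlib 3.10.9 in Python 3.11.15.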

Additional observations from a re-analysis of the deposited data

Results flagged for a closer look

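In 1 of 30 groups of 4 libraries, 1 library stood apart from the other 3 by Dixon's criterion at the 95% level. TXNRD2 had 2849.9 normalized counts in control replicate 4, against 2524 to 2533 in the other control libraries, a gap of 0.973 of the group's range. Chance gives about 1 such group in 20.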

How the results depend on the processing

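Of 750 values of the 10 genes under 25 alternatives, 691 kept their direction and their side of the threshold, 31 kept the direction without a call, 13 gained a call and 15 changed sign, all 15 of them in comparisons that were not called. For pyrimethamine against the control, TXN changed sign with libraries set to equal totals (-0.033), with quantile normalization (-0.051) and with a library left out (-0.011 to 0.054), and PRDX3 with libraries set to equal totals (-0.036) and with a library left out (-0.0012 to 0.033). PRDX3 under mitoxantrone against the control changed sign in edgeR (0.0047), in DESeq2 (0.0010) and with a library left out (-0.018 to 0.023). Between the drugs, PRDX2 changed sign with libraries set to equal totals (-0.015), upper-quartile rescaling (-0.012) and quantile normalization (-0.039), and PRDX3 with a library left out (-0.039 to 0.0017). The cause was not tested. The count of members called was 4 without a variance trend for pyrimethamine against the control; over all alternatives it ran from 6 to 9 for mitoxantrone against the control, 4 to 8 for pyrimethamine against the control and 7 to 8 between the drugs. Counts over all genes and over the pathway stayed within 1.5 times.

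Setting libraries to equal totals moved the median log2 change of all genes for mitoxantrone against the control to -0.11; 4420 genes were then higher and 7210 lower, against 5681 and 6064, and of the members 5 were higher and 3 lower. Quantile normalization gave 6 members higher and 3 lower in that comparison, and 6 and 2 between the drugs, where edgeR gave 7 higher and 0 lower. Upper-quartile rescaling gave 3 higher and 2 lower for pyrimethamine against the control. Same-numbered libraries of different groups did not deviate together (12 pairs, r from -0.130 to 0.121), so the numbers were not taken as pairs; with the replicate number as a block, 7, 8 and 8 members were called for mitoxantrone against the control, pyrimethamine against the control and between the drugs, with PRDX4 under pyrimethamine gained (adjusted p = 0.0343). SRXN1 had the fewest reads, 5 to 52 under pyrimethamine, where counting error gives a coefficient of variation of 18.2% and the libraries varied by 68.5%.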

Other observations

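PDF on chromosome 16, a peptide deformylase gene, was among the 3 genes nearest to SRXN1 in profile over these same 12 libraries, so that its likeness to SRXN1 is a description of the choice and no test. PDF had 319, 144, 73.0 and 283 normalized counts in mitoxantrone replicates 1 to 4, 97.9, 48.3, 72.7 and 35.0 in the pyrimethamine replicates and 110.4, 87.2, 56.1 and 177 in the control replicates. Within mitoxantrone and within pyrimethamine the libraries stood in the same order for both genes, and in the control replicate 4 and then replicate 1 were highest for both. COL26A1, which was slightly nearer to SRXN1 over all 12 libraries, had 219, 227, 240.0 and 263 normalized counts in the mitoxantrone replicates and did not show that order there. In the pyrimethamine replicates it did (42.7, 32.5, 42.0 and 16.4). AC011462.6, also slightly nearer than PDF, had 239, 274, 277 and 230 in the mitoxantrone replicates and did not show that order there. Of PDF's exonic bases, 48.3% overlap other genes, beside 85.0% for SRXN1 and 0% for COL26A1. The overlap of AC011462.6 was not computed. How many other genes share the order was not counted, and what it comes from was not tested.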
